A study of Homo sapiens with 12 samples.

Results

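The subject is how the response to JQ1 differed between a pair of head and neck squamous cell carcinoma lines that carry human papillomavirus, UM-SCC-047 and UPCI-SCC-090. All 12 RNA-seq libraries entered 1 model with the line, the treatment and their interaction, and each gene was described by its interaction term, the log2 fold change with JQ1 in UPCI-SCC-090 minus that in UM-SCC-047. Of 20738 gene IDs in the count table, 14396 had enough reads to be tested and 945 (6.56%) passed at a Benjamini-Hochberg adjusted p below 0.05 in edgeR's quasi-likelihood test. The effect of JQ1 was higher in UPCI-SCC-090 for 422 of them (2.93% of all genes tested) and higher in UM-SCC-047 for 523 (3.63%). A gene was said to move in opposite directions when it passed in the interaction, rose in 1 line and fell in the other, each at an adjusted p below 0.05, and 140 genes (0.972%) did so.

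The libraries made 4 groups of 3. Each line received either 500 nM JQ1 or 0.1% DMSO, the solvent, for 72 h, so the lines shared the dose, the time and the control treatment. Both are established lines, each from a single tumor, and a difference between them is a difference between 2 cell lines and not between classes of tumor. Separate cultures are not stated for the 3 libraries of a group, so the p-values measure the spread among these libraries, which may be technical. Libraries held 20349275 to 30788657 estimated counts. Levels are given in CPM, counts divided by the library size after scaling with TMM factors, and they are shares of a library, so fewer RNA molecules per cell and fewer cells that express a gene cannot be told apart. The 6 markers of squamous epithelium chosen for the check were all measured, whereas 4 of 7 fibroblast markers, 2 of 5 endothelial markers found in the table and 5 of 9 leukocyte markers had too few reads to be tested. Of the markers of other cell types that were tested, PDGFRA (fibroblast), CDH5 (endothelium) and CD14 (leukocyte) passed in the interaction, each with the higher effect in UM-SCC-047. CDH5 had 7.27, 7.45 and 6.81 CPM with DMSO and 2.64, 3.15 and 1.97 with JQ1 in UM-SCC-047, and went from 0.366, 0.263 and 0.355 to no read in UPCI-SCC-090, at least 8.12-fold lower with 3 counts over the group as the floor (edgeR, adjusted p = 0.00877). CD14 rose from 2.71, 2.82 and 2.62 to 5.87, 6.91 and 4.85 in UM-SCC-047 and fell from 2.73, 4.73 and 5.01 to 0.691, 0.678 and 0.23 in UPCI-SCC-090 (adjusted p = 0.00159), and was called opposite in 12 of 24 settings. CD3D, CD3E, CD2, CD79A and LYZ had too few reads to be tested, and the part of other cell types in the results was not tested. The slope of log2 CPM on GC content was steepest in UM-SCC-047 JQ1 replicate 3 (-0.51 per 10 percentage points of GC), UPCI-SCC-090 DMSO replicate 2 (0.66) and UPCI-SCC-090 JQ1 replicate 3 (-0.73), against -0.27 to 0.43 in the other 9 libraries.

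JQ1 occupies the acetyl-lysine pockets of the BET family of chromatin readers and displaces them from acetylated chromatin. The family helps to bring P-TEFb, the kinase that releases paused RNA polymerase II, to promoters and to the enhancers that define cell identity, so the genes that depend on it differ from one cell type to another. In stratified squamous epithelium, basal cells attached to a basement membrane become suprabasal cells that exchange one set of keratins for another and cross-link a protein envelope, and carcinoma cells can also take on mesenchymal features, with matrix genes such as FN1 and factors such as TWIST1.

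The promoters of 5 genes that moved in opposite directions are shown because they stand for the 2 patterns of the results: KRT4, IVL and MT2A rose with JQ1 in UPCI-SCC-090 and fell in UM-SCC-047, and FN1 and FBN1 did the reverse. Each is the 250 bases before the annotated start, 5′ to 3′ on the strand of the gene, from RefSeq on GRCh38.p14: KRT4 at chr12:52814117-52814366 (minus strand), IVL at chr1:152908296-152908545 (plus strand), MT2A at chr16:56608334-56608583 (plus strand), FN1 at chr2:215436069-215436318 (minus strand) and FBN1 at chr15:48644971-48645220 (minus strand). Capitals mark TGANTCA, the AP-1 motif, in IVL and MT2A, TGACGTCA, the cyclic AMP response element, in FN1, and GGAATG, the TEAD motif, in FBN1. KRT4 held none of the motifs searched. RefSeq windows were not used for KRT13 and TAGLN.
KRT4: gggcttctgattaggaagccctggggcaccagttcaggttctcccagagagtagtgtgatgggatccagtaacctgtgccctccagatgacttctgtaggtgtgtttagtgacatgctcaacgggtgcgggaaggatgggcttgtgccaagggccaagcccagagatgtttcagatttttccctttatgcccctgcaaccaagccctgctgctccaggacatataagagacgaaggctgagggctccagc
IVL: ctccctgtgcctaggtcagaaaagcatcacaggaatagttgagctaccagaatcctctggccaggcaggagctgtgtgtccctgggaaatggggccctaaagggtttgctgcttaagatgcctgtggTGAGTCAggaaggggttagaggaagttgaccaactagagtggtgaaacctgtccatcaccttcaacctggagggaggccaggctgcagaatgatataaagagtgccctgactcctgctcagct
MT2A: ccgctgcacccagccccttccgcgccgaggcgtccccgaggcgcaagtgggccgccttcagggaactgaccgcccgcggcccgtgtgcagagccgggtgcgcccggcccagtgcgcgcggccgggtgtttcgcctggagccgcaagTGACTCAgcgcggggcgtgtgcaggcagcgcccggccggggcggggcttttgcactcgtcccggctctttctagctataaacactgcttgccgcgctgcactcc
FN1: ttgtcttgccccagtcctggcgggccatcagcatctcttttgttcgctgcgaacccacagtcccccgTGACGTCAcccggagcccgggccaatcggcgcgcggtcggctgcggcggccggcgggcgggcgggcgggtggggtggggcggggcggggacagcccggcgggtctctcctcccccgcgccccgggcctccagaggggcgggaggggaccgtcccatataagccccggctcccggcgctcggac
FBN1: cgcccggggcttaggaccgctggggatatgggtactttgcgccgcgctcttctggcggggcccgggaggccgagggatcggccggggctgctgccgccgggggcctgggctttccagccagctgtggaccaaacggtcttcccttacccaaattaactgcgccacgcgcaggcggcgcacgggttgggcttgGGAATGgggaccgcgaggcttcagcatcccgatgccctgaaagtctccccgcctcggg

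The 4 motifs were searched on both strands, and matches may overlap one another. TGANTCA was found in 9 of the 46 genes with a window among the 68 that rose in UPCI-SCC-090 and fell in UM-SCC-047 (19.6%), in 4 of 57 of the 72 that did the reverse (7.02%), in 6.45% of all tested genes with a window and in 6.57% of all 35116 windows. TGACGTCA was found in 0 of the 46 and in 4 of the 57 (7.02%), against 3.32% of tested genes and 1.65% of windows. CACGTG, the E-box, was found in 15.2% and 7.02% of the same 2 sets, 11% of tested genes and 6.34% of windows, and GGAATG in 8.7% and 10.5%, 13.3% of tested genes and 11.9% of windows. No test was made of these shares. A match only says that the letters are present.

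JQ1 changed many genes in each line. It lowered 2489 genes (17.3%) and raised 1348 (9.36%) in UM-SCC-047, beside 3227 lowered (22.4%) and 1915 raised (13.3%) in UPCI-SCC-090. When each line was fitted by itself the order turned round: 3689 genes changed for UPCI-SCC-090, fewer than the 5594 for UM-SCC-047. Which line changed more genes therefore depended on the fit. The separate fits gave 134 genes of opposite direction, and 92 of them were among the 140. The classes below come from the fit of all 12 libraries. The interaction is a smaller set, and its most frequent form was a gene that fell in UPCI-SCC-090 and did not pass in UM-SCC-047 (295 genes). A further 158 rose in UPCI-SCC-090 alone, 130 fell in UM-SCC-047 alone and 96 rose in UM-SCC-047 alone, where alone means that the other line's change did not pass. In 122 genes both lines moved the same way by unequal amounts: 48 fell further in UPCI-SCC-090, 40 fell further in UM-SCC-047, 23 rose further in UPCI-SCC-090 and 11 rose further in UM-SCC-047. The remaining 4 passed in the interaction but in neither line.

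**Figure D1:**
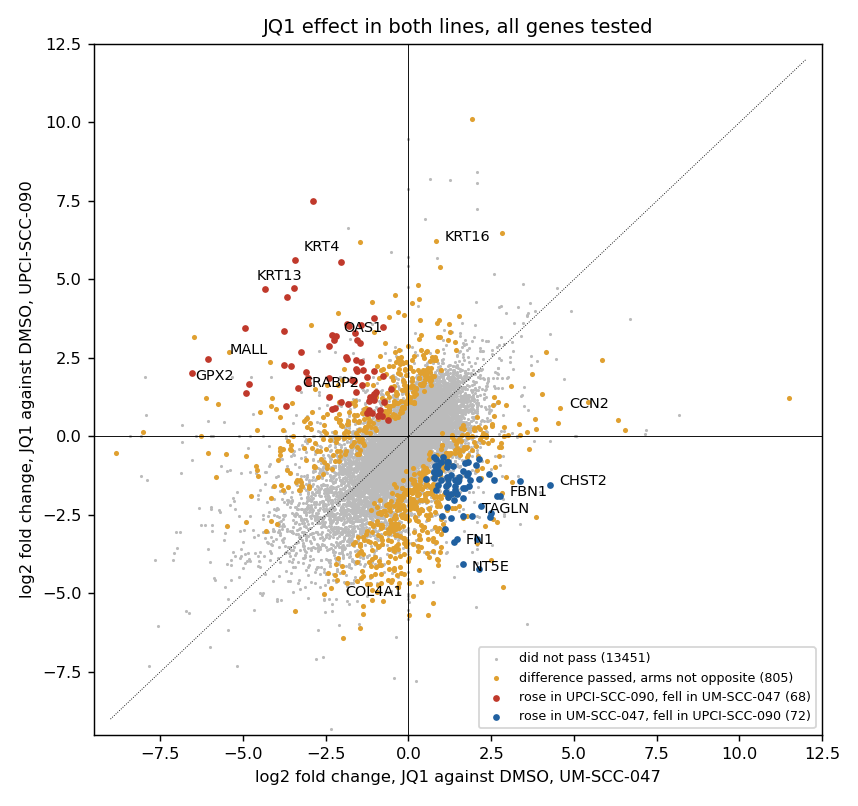
Each point is 1 of the 14396 genes tested, with the log2 fold change with JQ1 in UM-SCC-047 on the horizontal axis and in UPCI-SCC-090 on the vertical axis; gray points did not pass in the interaction, red and blue points moved in opposite directions, orange points are the others that passed, and the dotted line marks equal effects. The 68 red genes at the upper left rose in UPCI-SCC-090 and fell in UM-SCC-047, KRT13 and KRT4 among them, and the 72 blue genes at the lower right did the reverse.

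**Figure D2:**
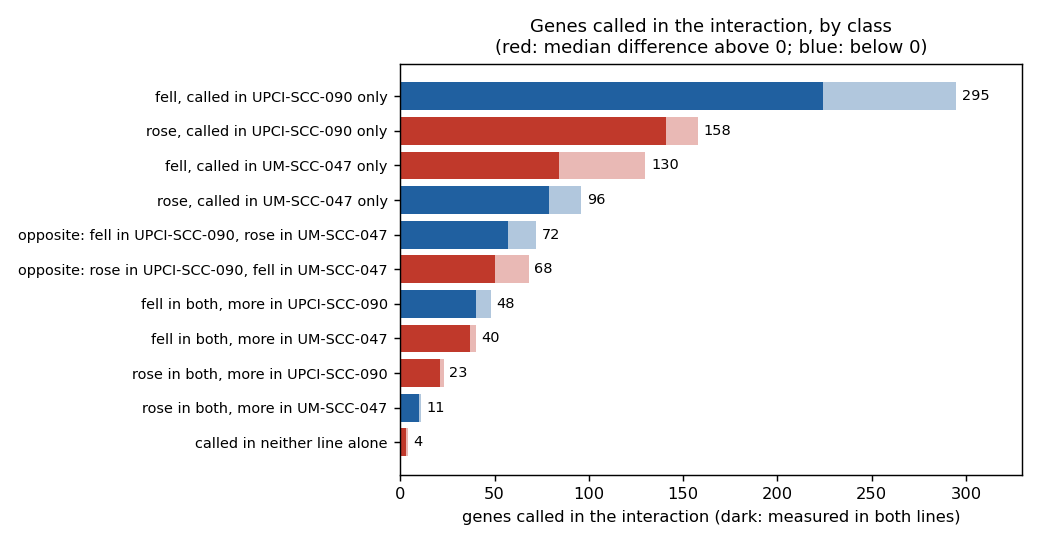
Horizontal bars give the number of genes in each class of the 945 that passed in the interaction, with the dark part for genes whose higher group had a mean of 1 CPM or more in each line, red for a median difference above 0 and blue for one below 0. Genes that fell in UPCI-SCC-090 only form the longest bar (295 genes, 224 of them in the dark part).

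A difference between lines can arise where a gene is barely expressed in one of them. Of the 945 genes, 746 (78.9%) reached a mean of 1 CPM in the higher group of both lines, 335 with the higher effect in UPCI-SCC-090 and 411 with the higher effect in UM-SCC-047, and so did 107 of the 140 that moved in opposite directions. The median difference over all genes tested was -0.03 on the log2 scale, and the median effects of JQ1 were -0.09 in UPCI-SCC-090 and -0.04 in UM-SCC-047. Genes near the threshold included ANG, with a difference of -1.60 and an adjusted p of 0.0498, just inside it, and SLC37A3, with 0.96 and 0.05004, just outside. The smallest difference that passed was 0.88, and the median standard error of a difference was 0.5. In 335 of the 945 genes (35.4%) the line with the higher level under JQ1 was not the line with the higher level under DMSO, against 3031 of all 14396 (21.1%). The gap between lines widened in 388 and narrowed in 222, against 6061 and 5304 of all 14396. Counts depended on single libraries: leaving out 1 library at a time gave 201 (without UM-SCC-047 DMSO replicate 1) to 652 genes (without UPCI-SCC-090 JQ1 replicate 2) higher in UPCI-SCC-090, 256 (without UM-SCC-047 DMSO replicate 3) to 1123 (without UPCI-SCC-090 JQ1 replicate 2) higher in UM-SCC-047, and 86 (without UM-SCC-047 DMSO replicate 3 or JQ1 replicate 1) to 219 (without UPCI-SCC-090 JQ1 replicate 2) in opposite directions. None of the 945 genes changed the sign of its difference in any of 24 alternative settings in which it was tested, and 52 of the 140 were called in opposite directions in all 24. The genes were selected in the same libraries that the settings reuse, so the kept signs add little support.

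The 68 genes that rose in UPCI-SCC-090 and fell in UM-SCC-047 included suprabasal keratins and envelope genes of squamous epithelium. Their median log2 fold change was 1.99 in UPCI-SCC-090 and -1.75 in UM-SCC-047. In 67 of the 68 the JQ1 and DMSO libraries did not overlap in either line. Selection by a call in both lines largely brings this about, so the count is no further support. Lack of overlap was also a condition for the genes named as examples of a class, so it is no further support for them. KRT13 (ENSG00000171401, chr17:39657233-39661957, minus strand, GRCh37), a keratin of the suprabasal layers of oral mucosa, had 340, 355 and 316 CPM in the DMSO libraries of UM-SCC-047 and 17.2, 17.5 and 15.7 with JQ1. In UPCI-SCC-090 it had 28.5, 47.7 and 38.2 CPM with DMSO and 936, 1322 and 688 with JQ1. All 3 JQ1 libraries lay below all DMSO libraries in one line and above them in the other, and the line with more KRT13 changed with treatment. The log2 fold change was 4.69 ± 0.29 (SE) in UPCI-SCC-090 and -4.32 ± 0.28 in UM-SCC-047, a difference of 9.01 ± 0.41 (edgeR, adjusted p = 8.57e-07).

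KRT4 (ENSG00000170477, chr12:53200333-53207900, minus strand, GRCh37), the type II keratin that pairs with KRT13, showed the same pattern. It had 51.8, 51.6 and 43.6 CPM with DMSO and 4.09, 5.62 and 3.94 with JQ1 in UM-SCC-047, and 4.42, 7.26 and 5.04 with DMSO and 189, 437 and 203 with JQ1 in UPCI-SCC-090. The groups did not overlap within either line, and the difference of log2 fold changes was 9.06 ± 0.53 (SE; edgeR, adjusted p = 8.59e-06). Involucrin (IVL, chr1:152881022-152884362, plus strand, GRCh37), a substrate of the cornified envelope, was low in UPCI-SCC-090 with DMSO (0.133, 0.0875 and 0.0323 CPM) and reached 1.16, 1.45 and 0.997 with JQ1, whereas in UM-SCC-047 it went from 7.94, 7.97 and 8.51 to 4.31, 3.54 and 3.89. UM-SCC-047 therefore kept the higher IVL level in both treatments while the gap narrowed, with a difference of 4.82 ± 0.50 (edgeR, adjusted p = 0.000314). Transglutaminase 1 (TGM1), which cross-links the envelope, fell from 13.5, 13.7 and 12.9 CPM to 4.83, 5.06 and 3.59 in UM-SCC-047 and rose from 2.39, 4.46 and 2.75 to 6.91, 12.4 and 6.06 in UPCI-SCC-090, again without overlap and with the order of the lines reversed. Its difference was 2.98 ± 0.49 (edgeR, adjusted p = 0.00494). KRT13, KRT4 and TGM1 were called in opposite directions in all 24 alternative settings and IVL in 17.

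**Figure D3:**
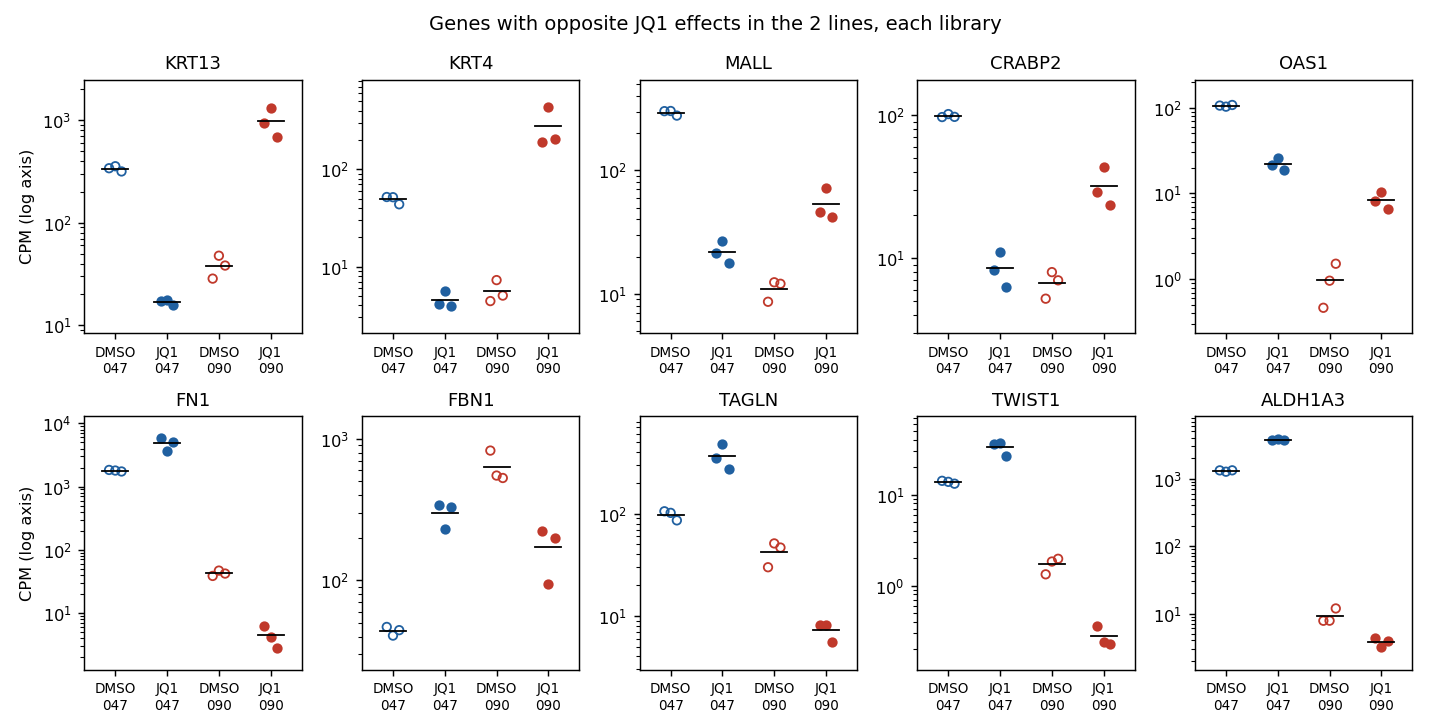
Each point is 1 library and each short line a group mean, in CPM on a log axis, for genes that moved in opposite directions; blue points are UM-SCC-047 and red points UPCI-SCC-090, open with DMSO and filled with 500 nM JQ1. KRT13 falls from 316-355 CPM to 15.7-17.5 CPM in UM-SCC-047 libraries and climbs from 28.5-47.7 to 688-1322 CPM in UPCI-SCC-090, and FN1 does the reverse.

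Several genes of this direction act in membranes, retinoid handling or the response to stress. MALL, a raft-associated membrane protein (chr2:110841447-110873599, minus strand, GRCh37), went from 302, 303 and 278 CPM to 21.3, 26.6 and 17.6 in UM-SCC-047 and from 8.61, 12.4 and 12.1 to 45.8, 72.3 and 42 in UPCI-SCC-090. CRABP2, which carries retinoic acid to its nuclear receptor, went from 97.3, 102 and 97.6 CPM to 8.29, 11 and 6.27 in UM-SCC-047 and from 5.19, 7.96 and 6.98 to 28.8, 43.5 and 23.6 in UPCI-SCC-090. For both genes the groups were separate in each line and the line with the higher level switched. The differences were 6.03 ± 0.38 for MALL (edgeR, adjusted p = 1.18e-05) and 5.79 ± 0.44 for CRABP2 (adjusted p = 4.6e-05). GPX2, a glutathione peroxidase of epithelia, fell in UM-SCC-047 from 5.52, 5.68 and 4.36 CPM to 0, 0.337 and 0.253 and rose in UPCI-SCC-090 from 56.5, 88.2 and 75.3 to 220, 306 and 180. Its reads were few in UM-SCC-047 with JQ1, and 1 of those libraries had none. AQP3, a water and glycerol channel of keratinocytes, fell from 103, 114 and 104 CPM to 37.9, 43.4 and 28.6 in UM-SCC-047 and rose from 10.3, 19 and 16.2 to 55.3, 81.4 and 54.7 in UPCI-SCC-090. The metallothionein MT2A fell from 172, 196 and 173 to 73.1, 98.5 and 67.9 and rose from 9.15, 16 and 13.1 to 28.9, 39.4 and 23.5. Both were higher in UM-SCC-047 under DMSO. Under JQ1 the order was reversed for AQP3 and kept for MT2A. The interferon-induced OAS1, which senses double-stranded RNA, was lowered in UM-SCC-047 from 106, 103 and 107 CPM to 21.3, 25.9 and 19 and raised in UPCI-SCC-090 from 0.466, 0.963 and 1.52 to 8.11, 10.5 and 6.52, a difference of 5.34 ± 0.52 (edgeR, adjusted p = 0.000276). Of 34 type I interferon genes tested, 3 passed in the interaction (8.82%, against 6.56% of all genes), and only OAS1 had the higher effect in UPCI-SCC-090. IFI27 and IFITM1 had the higher effect in UM-SCC-047 (edgeR, adjusted p = 0.0448 and 0.0109), and a single library left out ended the call of IFI27 in 10 of 12 cases and that of IFITM1 without UPCI-SCC-090 JQ1 replicate 1. S100A2, a calcium-binding protein of basal keratinocytes, fell from 226, 197 and 176 CPM to 33.5, 51.5 and 28 in UM-SCC-047 and rose from 675, 1474 and 1371 to 2680, 3675 and 2098 in UPCI-SCC-090. The differences were 6.50 ± 0.75 for GPX2, 3.62 ± 0.39 for AQP3, 2.44 ± 0.38 for MT2A and 3.67 ± 0.48 for S100A2 (edgeR, adjusted p = 0.000612, 0.000399, 0.0033 and 0.00117), and these 4 genes, MALL, CRABP2 and OAS1 were called in opposite directions in all 24 settings.

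The 72 genes that fell in UPCI-SCC-090 and rose in UM-SCC-047 included matrix, contractile and mesenchymal genes. Their median log2 fold change was -1.4 in UPCI-SCC-090 and 1.39 in UM-SCC-047, and their median difference of -2.94 was smaller in size than the 4.27 of the other direction. In 68 of the 72 the JQ1 and DMSO libraries did not overlap in either line, which again largely follows from the selection. ACTA2, another contractile gene, was not among the 72 and rose in both lines, further in UPCI-SCC-090, where it had few reads. Fibronectin (FN1, ENSG00000115414, chr2:216225163-216300796, minus strand, GRCh37) had 1834, 1794 and 1734 CPM with DMSO and 5868, 3648 and 5165 with JQ1 in UM-SCC-047. In UPCI-SCC-090 it had 38.4, 46.6 and 41.9 with DMSO and 6.29, 4.16 and 2.76 with JQ1. FN1 was higher in UM-SCC-047 under DMSO, the groups were separate in each line, and the gap between lines widened with JQ1. The log2 fold change was -3.26 ± 0.30 (SE) in UPCI-SCC-090 and 1.45 ± 0.27 in UM-SCC-047, a difference of -4.71 ± 0.40 (edgeR, adjusted p = 0.000108).

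Fibrillin 1 (FBN1, chr15:48700510-48937918, minus strand, GRCh37), the core of extracellular microfibrils, had the opposite starting order. It rose in UM-SCC-047 from 46.8, 40.6 and 44.4 CPM to 343, 229 and 329 and fell in UPCI-SCC-090 from 827, 551 and 529 to 223, 94.9 and 200, so the line with the higher level was reversed. The difference was -4.65 ± 0.45 (edgeR, adjusted p = 0.000276). Transgelin (TAGLN, chr11:117070086-117078180, plus strand, GRCh37), an actin-binding protein of contractile cells, rose from 106, 102 and 86.1 CPM to 348, 479 and 276 in UM-SCC-047 and fell from 29.9, 51.2 and 46.6 to 8.22, 8.23 and 5.56 in UPCI-SCC-090. TWIST1, a transcription factor of mesenchymal cells, rose from 14.2, 13.8 and 13.2 to 35.6, 37.3 and 26.4 in UM-SCC-047 and fell from 1.33, 1.84 and 1.97 to 0.363, 0.242 and 0.23 in UPCI-SCC-090. Neither gene's groups overlapped in either line. The differences were -4.45 ± 0.40 for TAGLN (edgeR, adjusted p = 0.000157) and -3.86 ± 0.41 for TWIST1 (adjusted p = 0.000351), and FN1, FBN1, TAGLN and TWIST1 were called in opposite directions in all 24 alternative settings. MMP14, a membrane-bound collagenase, rose from 346, 389 and 337 CPM to 1042, 771 and 824 in UM-SCC-047 and fell from 749, 1247 and 1022 to 274, 424 and 145 in UPCI-SCC-090, and was so called in 21 settings. NT5E (CD73), an ecto-enzyme that makes adenosine, rose from 15.4, 10.9 and 18.2 to 40.5, 34.7 and 63.7 and fell from 5.95, 1.88 and 2.75 to 0.4, 0.0484 and 0.153. The protease inhibitor SERPINE2 rose from 24.3, 24.2 and 22.3 to 75.4, 98.2 and 73.4 and fell from 75.9, 76.3 and 79.5 to 48.3, 44.4 and 38.2. No groups of these 3 genes overlapped, and their differences were -3.14 ± 0.48, -5.70 ± 0.83 and -2.63 ± 0.27 (edgeR, adjusted p = 0.00302, 0.00229 and 0.000314). The change of NT5E in UM-SCC-047 was the least certain of these (1.64 ± 0.53, edgeR, adjusted p = 0.0381), and its opposite call was kept in 17 of the 24 settings.

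A pair of enzymes of retinoic acid metabolism moved like FN1 and unlike CRABP2. ALDH1A3, which makes retinoic acid, rose from 1322, 1263 and 1324 CPM to 3775, 3889 and 3677 in UM-SCC-047 and fell from 7.82, 7.83 and 11.9 to 4.29, 3.15 and 3.91 in UPCI-SCC-090. CYP26A1, which degrades it, rose from 1.91, 1.8 and 1.61 to 5.24, 4.67 and 4.15 and fell from 2.76, 3.63 and 4.62 to 1.13, 1.31 and 0.959. Both sets of groups were separate, and the differences were -2.81 ± 0.28 and -3.09 ± 0.39 (edgeR, adjusted p = 0.000308 and 0.00092). Of 16 genes of retinoid metabolism tested, 4 passed (25%, against 6.56% of all genes), 1 with the higher effect in UPCI-SCC-090 and 3 with the higher effect in UM-SCC-047, with a median difference of -0.1 beside -0.03 over all genes.

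Keratins, the intermediate filaments of epithelia, had the highest share of members that differed among the gene lists compared. Of 26 listed, 19 were tested and 14 passed (73.7%, against 6.56% of all genes), 9 with the higher effect in UPCI-SCC-090 and 5 with the higher effect in UM-SCC-047. Their median difference was 1.96. The 5 became 3 without any 1 of UM-SCC-047 DMSO replicates 1 and 3, UM-SCC-047 JQ1 replicate 1, UPCI-SCC-090 DMSO replicate 2 and UPCI-SCC-090 JQ1 replicate 1, while the 9 stayed at 9 or 10. KRT15, a basal keratin (chr17:39669997-39678781, minus strand, GRCh37), had 92.3, 99.4 and 85.1 CPM with DMSO and 55.1, 57.9 and 48.4 with JQ1 in UM-SCC-047, and 110, 144 and 99.9 with DMSO and 1166, 1853 and 982 with JQ1 in UPCI-SCC-090. The fall in UM-SCC-047 was small (-0.78 ± 0.24, edgeR, adjusted p = 0.0333) beside the rise of 3.50 ± 0.26 in the other line (adjusted p = 1.51e-05), and the opposite call held in 15 of 24 settings. KRT16, a keratin of wounded and hyperproliferative epidermis, rose in both lines, from 11, 11.7 and 9.95 CPM to 19.7, 19.2 and 18.9 in UM-SCC-047 and from 15.8, 26 and 24 to 1460, 2189 and 1232 in UPCI-SCC-090. The difference for KRT16 was 5.39 ± 0.36 (edgeR, adjusted p = 1.94e-05).

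KRT18 and KRT8, keratins of simple epithelium, went the other way, whereas KRT19 and KRT7 did not pass in the interaction (edgeR, adjusted p = 0.146 and 0.793). KRT18 had 2300, 2237 and 2142 CPM with DMSO and 14470, 20120 and 11880 with JQ1 in UM-SCC-047, while in UPCI-SCC-090 it had 163, 321 and 275 with DMSO and 201, 249 and 153 with JQ1. Its partner KRT8 rose from 5495, 6166 and 4921 to 27910, 32430 and 23180 in UM-SCC-047 and had 950, 1717 and 1465 with DMSO and 1282, 1913 and 1028 with JQ1 in UPCI-SCC-090. Both were separated by treatment in UM-SCC-047 and overlapped in UPCI-SCC-090. The differences were -3.13 ± 0.41 for KRT18 (edgeR, adjusted p = 0.00117) and -2.30 ± 0.39 for KRT8 (adjusted p = 0.006), and the annotated spans of the neighbors overlap on opposite strands (chr12:53342655-53346690, plus strand, and chr12:53290971-53343738, minus strand, GRCh37). KRT17, induced in stressed epidermis, followed them, with 371, 402 and 308 CPM rising to 1882, 2152 and 1449 in UM-SCC-047 and 57.6, 106 and 94.3 beside 73.5, 105 and 74.5 in UPCI-SCC-090 (difference -2.37 ± 0.37, edgeR, adjusted p = 0.00346). KRT5, the basal type II keratin, fell in UM-SCC-047 from 614, 663 and 545 to 171, 201 and 144 and had 5.72, 9.8 and 8.46 beside 7.05, 12.1 and 7.4 in UPCI-SCC-090 (difference 1.96 ± 0.37, adjusted p = 0.0098). KRT14, its basal partner, went the other way, rising in UM-SCC-047 from 117, 121 and 105 to 250, 265 and 238, with 0.698, 1.14 and 1.87 beside 0.727, 0.968 and 0.921 in UPCI-SCC-090 (difference -1.64 ± 0.41, adjusted p = 0.0375). The call of KRT14 was lost without any 1 of 8 libraries, with an adjusted p of up to 0.11 without UM-SCC-047 DMSO replicate 3. KRT6A, KRT6B, KRT6C, KRT16 and KRT17 have close paralogs or pseudogenes among which the estimated counts divide reads, so their values are uncertain. KRT6C had a difference of 6.38 that did not pass (edgeR, adjusted p = 0.0656), and KRT1 had no read in the 3 JQ1 libraries of UM-SCC-047.

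**Figure D4:**
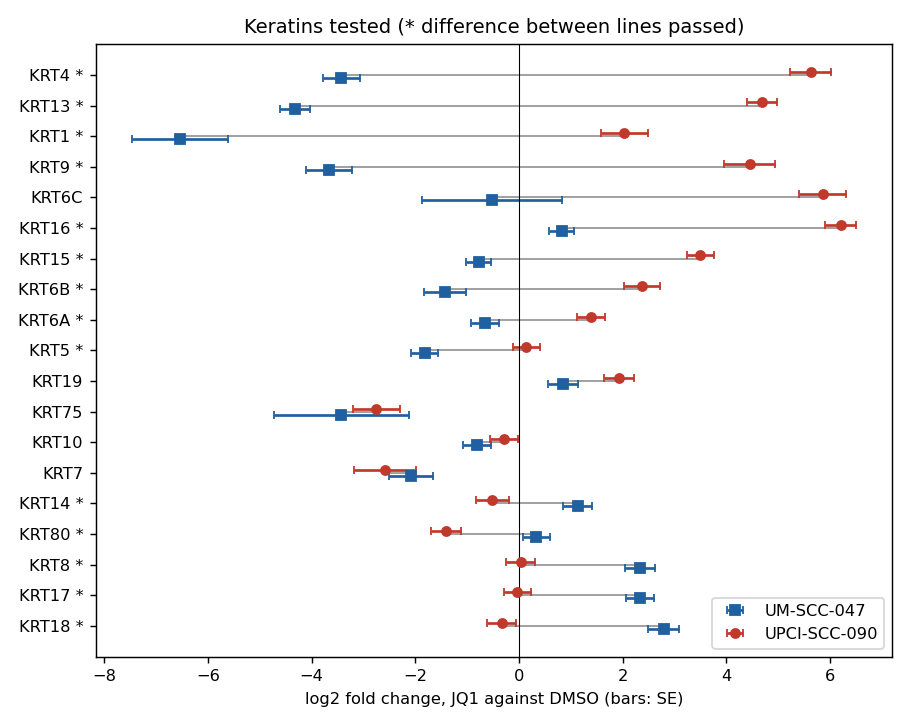
For each keratin tested, points give the log2 fold change with JQ1 in each line and bars give ± 1 standard error of the fit on 3 libraries per group. KRT13 and KRT4 lie below 0 in UM-SCC-047 and above 4 in UPCI-SCC-090, whereas KRT18, KRT8 and KRT17 lie above 2 in UM-SCC-047 and near 0 in UPCI-SCC-090.

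Of 36 genes of the cornified envelope and epidermal differentiation complex only 13 were tested and 7 passed (53.8%, against 6.56% of all genes). Of these, 6 had the higher effect in UPCI-SCC-090 and 1 in UM-SCC-047, the latter lost without any 1 of UM-SCC-047 DMSO replicates 1, 2 and 3, UM-SCC-047 JQ1 replicate 1 and UPCI-SCC-090 DMSO replicate 2. The median difference was 0.12 beside -0.03 over all genes, with 7 members above 0. S100A14 and S100A16, calcium-binding proteins of epithelia, rose in UPCI-SCC-090 (from 5.85, 9.19 and 7.49 to 149, 223 and 139 CPM, and from 36.5, 61.7 and 51.5 to 711, 1040 and 590) and did not pass in UM-SCC-047, with differences of 4.90 ± 0.40 and 4.29 ± 0.40 (edgeR, adjusted p = 7.55e-05 and 0.000239). Of the LY6 family, small surface proteins anchored by lipid, 3 of 8 tested passed (37.5%), each with the higher effect in UPCI-SCC-090. LYPD3 fell in UM-SCC-047 from 37, 42.2 and 33.9 CPM to 15.7, 19 and 13.2 and rose in UPCI-SCC-090 from 34.7, 62 and 52.7 to 172, 270 and 111, and LY6D, a marker of stratified epithelium, rose in UPCI-SCC-090 from 0.166, 0.744 and 0.646 to 30, 52.8 and 32.3. The antiprotease SLPI rose there from 0.233, 0.394 and 0.549 to 9.96, 15 and 8.82 and did not pass in UM-SCC-047. The differences of LYPD3, LY6D and SLPI were 3.13 ± 0.46, 7.67 ± 0.77 and 4.55 ± 0.51 (edgeR, adjusted p = 0.0026, 0.000308 and 0.000477), and LYPD3 was called in opposite directions in 22 of 24 settings.

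Transcription factors of squamous identity were mixed. Of 23 tested, 6 passed (26.1%, against 6.56% of all genes), 4 with the higher effect in UPCI-SCC-090 (2.93% of all genes) and 2 with the higher effect in UM-SCC-047 (3.63%), with a median difference of 0.74. With 1 library left out the counts ranged from 2 (8 of 12 libraries, UM-SCC-047 DMSO replicate 1 among them) to 6 and from 1 (7 libraries, again with that one) to 3. GRHL3, which drives the epidermal barrier, fell in UM-SCC-047 from 29.3, 30.5 and 25.6 CPM to 7.02, 6.18 and 5.11 and rose in UPCI-SCC-090 from 20.4, 27.5 and 24.6 to 39.5, 60.6 and 34.9 (difference 3.12 ± 0.38, edgeR, adjusted p = 0.000844). TFAP2A, an ectodermal factor, did the reverse, rising from 43.1, 41.7 and 46.5 to 87.3, 69.8 and 81.4 and falling from 32.1, 38.6 and 26.3 to 16.2, 19.3 and 11.8 (difference -1.90 ± 0.33, adjusted p = 0.007). These were called in opposite directions in 21 and 18 of 24 settings. For TFAP2A the paper reported a significant fall by RT-qPCR in both lines. In its RNA-seq of UM-SCC-047 it reported a fall that was not significant, unlike the rise found here. The reason for this disagreement was not tested. TP63, the master regulator of the basal layer, had a log2 fold change of -3.01 ± 0.54 in UM-SCC-047 (adjusted p = 0.00195) and -1.37 ± 0.51 in UPCI-SCC-090 (adjusted p = 0.0545), and its difference of 1.64 ± 0.71 did not pass (adjusted p = 0.225). TP63 passed without UPCI-SCC-090 JQ1 replicate 2 (2.08, adjusted p = 0.021), by limma voom (2.33, 4.6e-05) and with the GC correction and replicate block (1.29, 0.036), over a range of adjusted p up to 0.42 with 1 library left out.

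AP-1 subunits, the FOS, JUN and ATF proteins that dimerize on TGANTCA, moved in different directions. Of 13 tested, 6 passed (46.2%, against 6.56% of all genes), 3 with the higher effect in each line, and the median difference was -0.01. The 3 of UM-SCC-047 became 1 without any 1 of its DMSO replicates 1 and 3, its JQ1 replicate 1, UPCI-SCC-090 DMSO replicate 2 and UPCI-SCC-090 JQ1 replicate 1. FOS (chr14:75745529-75748933, plus strand, GRCh37) fell in UM-SCC-047 from 3.7, 3.95 and 3.4 CPM to 1.56, 1.52 and 0.91 and rose in UPCI-SCC-090 from 1.2, 1.71 and 1.39 to 10.5, 14.2 and 9.09. All groups were separate, the order of the lines was reversed, and the difference of 4.44 ± 0.43 (edgeR, adjusted p = 0.000276) was called opposite in all 24 settings. JUNB rose in UPCI-SCC-090 from 47.5, 83.2 and 69 CPM to 235, 396 and 188 and had 104, 148 and 108 beside 111, 105 and 71.3 in UM-SCC-047. ATF3, a stress-induced subunit, rose in UM-SCC-047 from 23, 24.3 and 20.7 to 120, 162 and 108 and had 25.3, 37 and 34.9 beside 42.8, 54.8 and 31.3 in UPCI-SCC-090. The differences were 2.36 ± 0.45 for JUNB and -2.12 ± 0.37 for ATF3 (edgeR, adjusted p = 0.00992 and 0.00639). JUN and JUND, with differences of -1.71 and -1.80, and FOSL1, with 1.68, passed at adjusted p = 0.0255, 0.0337 and 0.0491, and leaving out a single library ended the call in 5, 8 and 11 of 12 cases. The highest adjusted p values were 0.083 for JUN without UM-SCC-047 DMSO replicate 3, 0.099 for JUND without UM-SCC-047 DMSO replicate 1 and 0.12 for FOSL1 without UM-SCC-047 DMSO replicate 1. EGR1, an immediate early factor, fell in UM-SCC-047 from 12.9, 13.8 and 13.3 CPM to 0.966, 0.955 and 0.961 and had 10.1, 16.5 and 9.3 beside 11.7, 19.6 and 10 in UPCI-SCC-090, a difference of 3.99 ± 0.47 (edgeR, adjusted p = 0.00062).

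Some genes of the extracellular matrix fell in UPCI-SCC-090 and not, or less, in UM-SCC-047. Of 24 collagens tested, 7 passed (29.2%), each with the higher effect in UM-SCC-047, against 3.63% of all genes in that direction. The median difference was -1.51. JQ1 lowered 20 collagens in UPCI-SCC-090 and 9 in UM-SCC-047, against 22.4% and 17.3% of all genes. Without UPCI-SCC-090 JQ1 replicate 3, 2 collagens passed with the higher effect in UPCI-SCC-090. COL4A1 and COL4A2, the main chains of basement membrane collagen, are neighbors whose annotated starts overlap (chr13:110801310-110959504, minus strand, and chr13:110958159-111165556, plus strand, GRCh37). COL4A1 had 272, 319 and 271 CPM beside 452, 272 and 394 in UM-SCC-047 and fell from 129, 148 and 111 to 8.69, 5.33 and 1.61 in UPCI-SCC-090. COL4A2 had 472, 603 and 472 beside 504, 293 and 443 in UM-SCC-047 and fell from 183, 276 and 171 to 11.7, 8.47 and 2.69. In UM-SCC-047 the DMSO and JQ1 libraries of both genes overlapped, and in UPCI-SCC-090 they were far apart. The differences were -5.01 ± 0.64 (edgeR, adjusted p = 0.00109) and -4.46 ± 0.62 (adjusted p = 0.00174). The laminin chain LAMB1 had 326, 287 and 365 CPM beside 427, 230 and 542 in UM-SCC-047 and fell from 4.66, 2.63 and 3.84 to 0.618, 0.387 and 0.691 in UPCI-SCC-090. Perlecan (HSPG2) fell from 342, 735 and 382 to 26.3, 9.73 and 3.34 in UPCI-SCC-090 and did not pass in UM-SCC-047 (400, 384 and 402 beside 190, 167 and 201). The differences of LAMB1 and HSPG2 were -2.98 ± 0.48 and -4.12 ± 0.80 (edgeR, adjusted p = 0.00432 and 0.0108). Of 31 laminins, integrins and other basement membrane genes, however, only 3 passed in the interaction (9.68%, against 6.56% of all genes), ITGA9 among them with the higher effect in UPCI-SCC-090 (1.68 ± 0.39, adjusted p = 0.025, lost without any 1 of UM-SCC-047 DMSO replicates 1, 2 and 3, UM-SCC-047 JQ1 replicate 1 and UPCI-SCC-090 DMSO replicate 2), with a median difference of -0.84, and without UPCI-SCC-090 JQ1 replicate 2 the 2 with the higher effect in UM-SCC-047 became 9. Of the 7 fibroblast markers, COL1A2, COL3A1, LUM and PDGFRB had too few reads to be tested, COL1A1 fell in both lines without passing in the interaction (adjusted p = 0.0891), and PDGFRA fell in UPCI-SCC-090 from 2.96, 1.49 and 2.04 CPM to 0.182, 0.145 and 0.115 (difference -4.45 ± 0.61, edgeR, adjusted p = 0.00168). UPCI-SCC-090 JQ1 replicate 3, which had the lowest COL4A1, COL4A2 and HSPG2, was also the library with the steepest GC slope. These 3 genes passed in the interaction in all 24 alternative settings, the fit without that library included. The cause of its low values was not tested.

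Of 16 genes of the epithelial to mesenchymal transition tested, 8 passed (50%, against 6.56% of all genes). Of these, 5 had the higher effect in UM-SCC-047, 3 the higher effect in UPCI-SCC-090 and 3 moved in opposite directions, with a median difference of -1.47. The 3 with the higher effect in UPCI-SCC-090 became 1 without UPCI-SCC-090 DMSO replicate 3. ACTA2, a contractile gene, and CDH1, the epithelial cadherin, were among these 3. ACTA2 rose from 13.5, 15.95 and 14.4 CPM to 31.7, 29.6 and 24 in UM-SCC-047. In UPCI-SCC-090 it had no read with DMSO and 0.218, 0.194 and 0.192 with JQ1 (difference 4.42 ± 0.66, edgeR, adjusted p = 0.00993). CDH1 rose in UPCI-SCC-090 only (difference 1.05 ± 0.25, adjusted p = 0.0267), a call lost without any 1 of 6 libraries. JQ1 lowered 11 of the 16 in UPCI-SCC-090 and 2 in UM-SCC-047, against 22.4% and 17.3% of all genes. Of 21 matrix metalloproteinase and urokinase genes, 7 passed (33.3%), and 1 had the higher effect in UPCI-SCC-090 and 6 in UM-SCC-047, with 4 in opposite directions (2 without UM-SCC-047 DMSO replicate 3) and a median difference of -1.26. Of 20 targets and partners of YAP and TEAD, the effectors of Hippo signaling, 5 passed (25%), each with the higher effect in UM-SCC-047, and 3 of these moved in opposite directions, with a median difference of -0.85. CCN2 rose in both lines, from 16.9, 16.4 and 15.8 CPM to 386, 418 and 373 in UM-SCC-047 and from 26.9, 31.6 and 26.6 to 52.1, 56.9 and 50 in UPCI-SCC-090, so the order of the lines was reversed (difference -3.68 ± 0.23, edgeR, adjusted p = 1.11e-05). CCN1 rose from 126, 134 and 110 to 543, 615 and 475 and fell from 30.1, 47.6 and 40.7 to 22.1, 32.8 and 17.8. Its libraries overlapped in UPCI-SCC-090, where the change was -0.70 ± 0.25 (adjusted p = 0.0466), and it was called opposite in 11 of 24 settings. No YAP or TEAD gene was called opposite without UM-SCC-047 DMSO replicate 1, 2 or 3 or JQ1 replicate 1, and 9 passed without UPCI-SCC-090 JQ1 replicate 2.

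The genes of hypoxia and glycolysis that passed differed in the other direction. Of 31 tested, 10 passed (32.3%), each with the higher effect in UPCI-SCC-090, against 2.93% of all genes in that direction. The median difference was 0.98. The count was 4 without UM-SCC-047 DMSO replicate 1 and 5 without UM-SCC-047 DMSO replicate 2, DMSO replicate 3 or JQ1 replicate 1. EPAS1, the hypoxia-inducible factor HIF-2 alpha, rose in UPCI-SCC-090 from 14.9, 19.2 and 14.6 CPM to 59.5, 92.2 and 53.4 and had 249, 273 and 263 beside 328, 269 and 260 in UM-SCC-047. BNIP3, a mitophagy receptor, rose from 16.6, 14.6 and 23.2 to 55.4, 47.4 and 52.1 in UPCI-SCC-090 and had 142, 142 and 143 beside 94.1, 128 and 87.9 in UM-SCC-047, where the change did not pass. UM-SCC-047 had more of both in each treatment and the gap narrowed. The differences were 1.95 ± 0.32 (edgeR, adjusted p = 0.00492) and 1.97 ± 0.31 (adjusted p = 0.00389). Hexokinase 2 (HK2) fell in UM-SCC-047 from 123, 128 and 119 CPM to 52.4, 45.6 and 45.6 and had 7.55, 7.13 and 8.17 beside 8.72, 11 and 6.87 in UPCI-SCC-090 (difference 1.59 ± 0.30, edgeR, adjusted p = 0.00911).

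The genes of fatty acid synthesis that passed did the reverse. Of 11 genes tested, 5 passed (45.5%), each with the higher effect in UM-SCC-047, against 3.63% of all genes in that direction. The median difference was -1.15. The count was 1 without UM-SCC-047 DMSO replicate 1, DMSO replicate 3 or JQ1 replicate 1, 2 without UM-SCC-047 DMSO replicate 2 or UPCI-SCC-090 DMSO replicate 2, and 3 without UM-SCC-047 JQ1 replicate 2 or UPCI-SCC-090 JQ1 replicate 1. The desaturase SCD fell in UPCI-SCC-090 from 1043, 1462 and 1362 CPM to 326, 308 and 222 and had 1005, 1054 and 980 beside 856, 959 and 745 in UM-SCC-047, a difference of -1.93 ± 0.28 (edgeR, adjusted p = 0.00246) that passed in every alternative. Fatty acid synthase (FASN) fell in UPCI-SCC-090 from 298, 591 and 388 to 31.4, 28.8 and 5.03 and had 250, 300 and 247 beside 113, 84.1 and 106 in UM-SCC-047. Its difference of -2.90 ± 0.72 (edgeR, adjusted p = 0.0351) was lost without any 1 of UM-SCC-047 DMSO replicates 1, 2 and 3, UM-SCC-047 JQ1 replicate 1 and UPCI-SCC-090 DMSO replicate 2, with an adjusted p of up to 0.097.

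All 79 cytosolic ribosomal protein genes had a positive difference, with a median of 0.99. In the interaction 19 (24.1%) passed with the higher effect in UPCI-SCC-090, against 2.93% of all genes in that direction. JQ1 raised 74 of the 79 in UPCI-SCC-090 and 16 in UM-SCC-047, against 13.3% and 9.36% of all genes. RPL11, a protein of the large subunit, had 849, 658 and 806 CPM beside 1042, 1534 and 918 in UM-SCC-047 and rose from 371, 441 and 438 to 1776, 1964 and 1896 in UPCI-SCC-090 (difference 1.58 ± 0.29, edgeR, adjusted p = 0.00921). The share of a library's counts held by these genes was 6.65% to 7.03% and 6.79% to 9.76% in UM-SCC-047 with DMSO and JQ1, and 4.61% to 6.3% and 11.5% to 12.3% in UPCI-SCC-090. The 19 calls became 2 without the 3 libraries of the steepest GC slope and between 6 and 43 under the other count-based settings. With 1 library left out they ranged from 6 (UM-SCC-047 DMSO replicate 1 or 3, UM-SCC-047 JQ1 replicate 1 or UPCI-SCC-090 JQ1 replicate 1) to 40 (UM-SCC-047 JQ1 replicate 2). Ribosomal protein genes have many processed pseudogenes, so their estimated counts are uncertain.

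**Figure D5:**
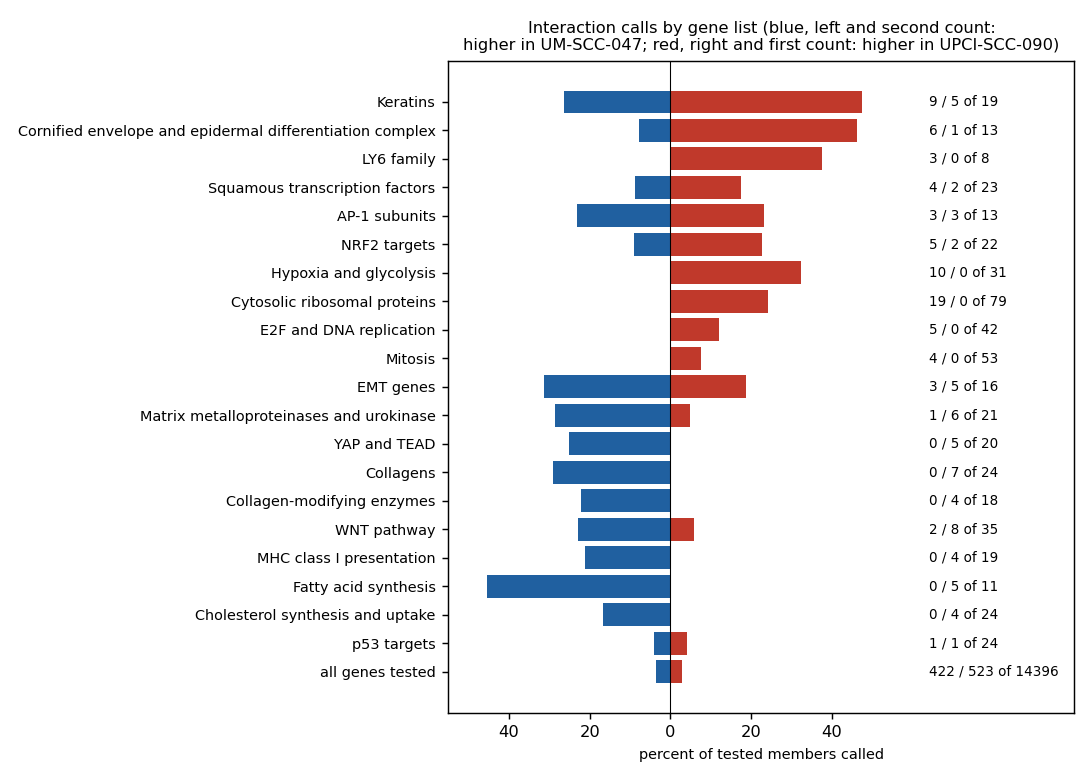
For each gene list, and for all genes tested in the last row, bars give the percent of tested members that passed in the interaction, to the right (red) with the higher effect in UPCI-SCC-090 and to the left (blue) with the higher effect in UM-SCC-047, and the counts stand at the right edge. Keratins reach farthest to the right (9 of 19) and fatty acid synthesis farthest to the left (5 of 11), against 422 and 523 of all 14396 genes.

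JQ1 lowered 29 of 42 E2F and DNA replication genes in UPCI-SCC-090 and 34 in UM-SCC-047, and 44 and 40 of 53 mitosis genes. Over all genes it lowered 22.4% and 17.3%. Of the 2 lists, 5 and 4 genes passed in the interaction (11.9% and 7.55%, against 6.56% of all genes), all with the higher effect in UPCI-SCC-090. Each list had a median difference of 0.59, and with 1 library left out the counts ranged from 1 to 6 and from 0 to 10, with 1 and 0 without UM-SCC-047 DMSO replicate 1 and 10 mitosis genes without UPCI-SCC-090 JQ1 replicate 3. GINS3, part of the replicative helicase, fell in UM-SCC-047 from 40.1, 38.1 and 38.1 CPM to 7.36, 9.95 and 6.72 and had 79.3, 120 and 110 beside 66.1, 80.9 and 57 in UPCI-SCC-090 (difference 1.68 ± 0.33, edgeR, adjusted p = 0.0121). Of 24 p53 targets, JQ1 raised 18 in UPCI-SCC-090 and 19 in UM-SCC-047, against 13.3% and 9.36% of all genes. In the interaction 1 p53 target passed in each direction (8.33% in all, 0 to 2 a direction with 1 library left out, both 0 without UM-SCC-047 DMSO replicate 1). HEXIM1, the P-TEFb inhibitor that BET inhibitors are known to raise, rose in both lines (from 54, 55.7 and 56.4 CPM to 206, 218 and 172, and from 68, 78.2 and 67.2 to 361, 452 and 298), with a difference of 0.54 ± 0.26 (adjusted p = 0.296). MYC fell in both, from 93.5, 113 and 94.9 to 53.7, 58.2 and 46.5 and from 27.2, 37.7 and 32.3 to 11.5, 16.3 and 11.3, with a difference of -0.39 ± 0.31 (adjusted p = 0.584). A p that misses the threshold does not show that the lines responded alike.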

How the data were processed

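Total RNA of 2 cell lines was depleted of ribosomal RNA and sequenced as 12 stranded libraries. The deposited values are estimated counts per gene, which the authors made with Salmon (version 0.8.2 in the submitters' notes, which also name DESeq2 1.28.0). Gene IDs were named from a GENCODE annotation on GRCh37, which matched 20015 of 20738, and 723 stayed unnamed. Counts were rounded, filtered with filterByExpr (minimum count 10, minimum total 15) and scaled by TMM. The quasi-likelihood test of edgeR 4.0.16 in R 4.3.3 was fitted to all 12 libraries with a mean per group, and the contrasts were JQ1 in each line and their difference, with Benjamini-Hochberg adjustment over the 14396 genes tested. Standard errors are the size of the log2 fold change over the square root of F. The genes named passed in the interaction and had a mean of at least 5 CPM in 1 group. By size of difference, up to 8 per opposite direction and 5 per other class were taken. These had no overlap of JQ1 and DMSO libraries in the line or lines that defined their class, and 1 CPM or more in the higher group of each line. Up to 3 per list and direction were taken without these 2 conditions. TP63, FOS, FOSL1, JUN, JUNB, JUND, TFAP2A, MYC, EGFR, HEXIM1 and MKI67 were named in any case. ANG, AQP3, COL1A1, CYP26A1, HK2, KRT1, KRT6A, KRT6B, KRT6C, KRT7, KRT15, KRT19, MT2A, PDGFRA, S100A2 and SLC37A3, outside this rule, were chosen after their values were seen. Members and gene lists were chosen with earlier results of these data known. Alternatives were other size factors (RLE, upper quartile, library size only), no filter, a filter at a mean of 1 CPM, DESeq2 1.42.0, limma 3.58.1 voom with quality weights, a loess correction for GC content within each line, the replicate number as a block, and leaving out libraries. The effects in each line were also taken from a fit of that line by itself. Scripts were tested on simulated counts. Depth was 20349275 to 30788657 counts per library. The common biological coefficient of variation was 39.3%. No library pair of a group differed by as little as sampling noise (chi-square per gene 8.39 to 399), so none was taken as a duplicate.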

Additional observations from a re-analysis of the deposited data

Results flagged for a closer look

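Every value here is a difference between the lines in the effect of JQ1, tested as an interaction term in edgeR. The effect was higher in UPCI-SCC-090 for 422 genes and higher in UM-SCC-047 for 523, and 140 genes passed in both lines with opposite signs. Of the named genes of opposite direction, those that rose in UPCI-SCC-090 had differences of 9.06 (KRT4), 9.01 (KRT13), 7.11 (SAMD11, a chromatin-associated protein), 6.5 (GPX2), 6.03 (MALL), 5.79 (CRABP2), 5.34 (OAS1) and 5.32 (UPK3BL1, which has near-identical copies and is uncertain) on the log2 scale. Those that rose in UM-SCC-047 had -5.81 (CHST2, a sulfotransferase), -5.7 (NT5E), -4.73 (SAMD4A, an RNA-binding protein), -4.71 (FN1), -4.65 (FBN1), -4.55 (GDNF, a neurotrophic factor), -4.45 (TAGLN) and -4.21 (GNAZ, a G protein subunit). These 16 differences kept their sign in all alternative settings in which they were tested, as did those of all 945 genes that passed. The 16 were named for their size and the settings reuse the same libraries, so this adds little support. CHST2 and GDNF were far lower in UM-SCC-047, with 0.174 to 0.223 and 0.0957 to 0.376 CPM under DMSO.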

How the results depend on the processing

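The numbers of genes depended on the fit far more than the directions did, and every alternative reused libraries of the main fit. With 1 library left out, 201 to 652 genes were higher in UPCI-SCC-090, 256 to 1123 higher in UM-SCC-047 and 86 to 219 in opposite directions, and 2545 to 4796 changed in UM-SCC-047. Counts moved by over 1.5 times without UM-SCC-047 DMSO replicate 1 (201, 262 and 88), 2 (233, 307 and 87) or 3 (211, 256 and 86) or JQ1 replicate 1 (209, 290 and 86), and for 1 direction or more without UM-SCC-047 JQ1 replicate 3 (811 higher in UM-SCC-047), UPCI-SCC-090 DMSO replicate 1 (812) or 3 (277 higher in UPCI-SCC-090), or UPCI-SCC-090 JQ1 replicate 1 (254) or 2 (652, 1123 and 219). Limma voom with quality weights of 0.131 to 7.3 gave 4155 and 4237 genes in the 2 directions of the interaction, 1442 opposite, with 9878 changed in UPCI-SCC-090 and 9794 in UM-SCC-047. The GC correction, which also removes GC trends that go with treatment, gave 1113, 1468 and 349, and 6220 changed in UM-SCC-047, and with the replicate block 1126, 1415, 337 and 6549. Without the 3 libraries of the steepest GC slope, 326 were higher in UM-SCC-047. The cause of these shifts was not tested. Correlations between DMSO and JQ1 libraries of a line were taken on log2 CPM minus the group mean, so negative values arise by construction. They were -0.147 to 0.789 for the same replicate number and -0.851 to 0.793 for different numbers. These values do not settle whether replicate numbers pair the samples. As a block the numbers gave 1204 genes in the interaction across lines and 1103 within line. Of genes called in the interaction, 44.7% were higher in UPCI-SCC-090, against 28.3% without UM-SCC-047 JQ1 replicate 3, 30.4% without UPCI-SCC-090 DMSO replicate 1 and 31.4% without UPCI-SCC-090 DMSO replicate 3. Other fits raised the share. Leaving out JQ1 replicate 3 of UPCI-SCC-090 gave 51.2% (459 genes, against 438 higher in UM-SCC-047). Leaving out JQ1 replicate 2 of UM-SCC-047 gave 50.1% (433 against 431). The larger count for UM-SCC-047 therefore did not hold in every fit. With library size alone the median log2 fold change of all genes shifted from -0.04 to -0.30 in UM-SCC-047 and from -0.09 to -0.43 in UPCI-SCC-090, and the share of changed genes that were higher from 35.1% to 20.1% and from 37.2% to 21.3%. The differences of 2 genes that did not pass changed sign: EGFR, -0.15, was 0.44 by voom and -0.43 to 0.28 with 1 library left out, and MKI67, -0.70, was 3.19 by voom (adjusted p = 0.0042, the only one of these values that passed), 0.16 with the block within line, 1.07 without the 3 libraries and -1.37 to 1.02 with 1 library left out.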

Other observations

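Several genes of other groups also differed between the lines. Of 19 genes of antigen presentation by MHC class I, 4 passed (21.1%, against 6.56% of all genes), each with the higher effect in UM-SCC-047 (3.63% of all genes). Their list had a median difference of -0.6. The count was 7 without UM-SCC-047 JQ1 replicate 3 or UPCI-SCC-090 DMSO replicate 1. PSMB8, a subunit of the immunoproteasome, fell in UPCI-SCC-090 from 7.85, 13.4 and 12.6 CPM to 1.09, 0.581 and 0.729 and had 103, 109 and 97.3 beside 79.8, 114 and 63.9 in UM-SCC-047 (difference -3.53 ± 0.44, edgeR, adjusted p = 0.000913). NLRC5, the transactivator of MHC class I genes, fell in UPCI-SCC-090 from 4.06, 6.3 and 3.46 to 0.582, 0.242 and 0.384 and had 16.6, 20 and 15.4 beside 10.2, 7.64 and 10.3 in UM-SCC-047 (difference -2.59 ± 0.49, adjusted p = 0.00976). Of 35 WNT pathway genes, 10 passed (28.6%), of which 2 had the higher effect in UPCI-SCC-090 and 8 in UM-SCC-047, with a median difference of -0.67, and the 2 became 1 without any 1 of 7 libraries, UM-SCC-047 DMSO replicates 1, 2 and 3 among them. The WNT receptor FZD5 rose in UM-SCC-047 from 11.7, 8.2 and 9.38 CPM to 20.1, 17.2 and 18.5 and fell in UPCI-SCC-090 from 20.2, 18 and 15.5 to 10.4, 7.31 and 6.98, so the lines exchanged their order (difference -2.05 ± 0.37, adjusted p = 0.00747).

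Of single genes, ID2, which blocks basic helix-loop-helix factors, rose from 17.6, 18.6 and 24.6 CPM to 54.7, 60.2 and 58.7 in UM-SCC-047 and from 34, 20.5 and 38 to 548, 323 and 450 in UPCI-SCC-090 (difference 2.32 ± 0.38, edgeR, adjusted p = 0.00453). CDKN2B, the cyclin-dependent kinase inhibitor p15, rose from 108, 98.5 and 114 to 249, 244 and 278 and from 16.4, 13.7 and 15.3 to 155, 142 and 161 (difference 2.06 ± 0.23, adjusted p = 4e-04). Among genes that fell in UM-SCC-047 alone, the serine protease TMPRSS4 went from 32.8, 33.8 and 32.2 CPM to 1, 1.07 and 1.21, with 197, 299 and 261 beside 152, 225 and 119 in UPCI-SCC-090 (difference 4.30 ± 0.37, adjusted p = 0.000111). The factor ASCL2 had 2.62, 2.44 and 1.7 CPM with DMSO and no read with JQ1 in UM-SCC-047, at least 48.5-fold lower, taking 3 counts over the group as the floor. In UPCI-SCC-090 ASCL2 had 3.79, 6.39 and 6.23 CPM beside 3.27, 5.37 and 2.84, and the change did not pass (interaction, edgeR, adjusted p = 0.000913). SFT2D3, a protein of vesicle transport, had no read in the 3 DMSO libraries of UM-SCC-047 and 9.7, 23.6 and 9.71 CPM with JQ1, at least 386-fold higher by the same floor. Whether the assignment of reads had a part in this jump was not tested.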
